A study of Mus musculus with 20 samples.

Results

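Kidney tumours grown in mice were set apart by how much RNA of neutrophil genes they held: 6 tumours rich in it were compared with 6 that were poor in it, out of 20 sequenced. The tumours were selected on measured values. For each library the score was the mean log2 TPM (a share of all transcripts, corrected for transcript length) of S100a8, S100a9 and Csf3r, minus the median log2 TPM of 15422 genes, those that reached 1 TPM in 5 or more of the 20 libraries. A pair of libraries, GYY_PD1 replicates 1 and 4, was left out by the rule, and the other 18 were ranked. The 6 highest and the 6 lowest form the rich and the poor set, and the 6 between them are called the middle tumours. All other protein-coding genes above the filter, 11831 of them, were then compared between the sets.

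The tumours came from 1 mouse cell line, MSRT1, which the labels give as renal medullary carcinoma, a rare and aggressive kidney cancer. Bulk RNA of 5 biological replicates was sequenced in each of 4 treatment groups, which the labels describe no further. Veh_IgG mice received vehicle and a control antibody, GYY_IgG mice the hydrogen sulfide donor GYY4137 and the control antibody, Veh_PD1 mice vehicle and an antibody against the checkpoint receptor PD1, and GYY_PD1 mice GYY4137 and the PD1 antibody. Strain, age, dose and time of sampling were not given in the sources used here, and a single line stands for the disease. The poor set held 3 Veh_IgG and 3 GYY_IgG tumours. The rich set held 3 Veh_PD1, 2 GYY_IgG and 1 Veh_IgG tumours, and no GYY_PD1 tumour was in either set.

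Neutrophils are short-lived white blood cells that are made in the bone marrow under the growth factor G-CSF and enter tissue along chemokines that bind the receptor CXCR2. Their granule proteins are made in order, enzymes such as myeloperoxidase in marrow precursors and gelatinases and surface receptors in mature cells, so the transcripts of a blood or tissue neutrophil are largely those of the last stages. In tumours they can kill, remodel matrix or suppress T cells, and those with suppressive activity are also called granulocytic myeloid-derived suppressor cells.

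The sets also differed in library makeup. Gene models whose sequence resembles the major satellite repeat, found beside mouse centromeres, took 3.53% to 11.1% of all TPM in the poor libraries and 13.2% to 59.6% in the rich ones. With a boundary of 20%, chosen after seeing the data, 5 of the 6 rich libraries and none of the 6 poor ones lay above it, and Veh_IgG replicate 4 was the 1 rich library below it. The library median fell with it, from 3.00 to 3.45 log2 TPM in the poor set and 1.53 to 2.97 in the rich set. Nuclear protein-coding genes held 31.9% to 43.0% of TPM in the poor set and 11.2% to 29.4% in the rich set, and mitochondrial coding genes held 5.78% to 6.62% and 1.52% to 4.83%. Over 1040 genes for smell and pheromone receptors, the mean was 0.015 to 0.0402 TPM and 0.0401 to 0.115 TPM. The number of genes at 1 TPM or more was 14074 to 15162 and 11517 to 14821. Neutrophil score and satellite class thus run together in these 12 libraries, and the main results below are also given within the classes.

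S100a8 and S100a9 encode the subunits of calprotectin, a major protein of neutrophil cytosol, and Csf3r encodes the receptor of G-CSF. Their values chose the sets and are described without a test. S100a8 had 10.1, 30.9 and 64 TPM (lowest, median and highest) in the poor tumours and 61, 90.6 and 233 TPM in the rich ones. S100a9 had 14, 38.3 and 67.2 TPM against 69.9, 122 and 247 TPM. Csf3r, a lower transcript, had 3.2, 5.24 and 8.91 TPM against 4.89, 8.21 and 13.6 TPM. As TPM, S100a8 and Csf3r overlapped between the sets, and S100a9 did not. Relative to the library median, none of the 3 overlapped: S100a8 stood at 0.15 to 3.00 log2 units in the poor set and 4.21 to 5.32 in the rich one, S100a9 at 0.62 to 3.07 and 4.37 to 5.66, and Csf3r at -1.32 to -0.19 and 0.63 to 2.01.

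The score ran without a gap. From the bottom it was -0.11 in Veh_IgG replicate 5, 0.23 in Veh_IgG replicate 1, 0.96 in GYY_IgG replicate 5, 0.98 in GYY_IgG replicate 2, 1.32 in GYY_IgG replicate 1 and 1.58 in Veh_IgG replicate 3. The next library, GYY_PD1 replicate 5 at 1.62, was just outside the poor set. At the other end the score was 4.12 in GYY_IgG replicate 3, 3.77 in Veh_PD1 replicate 1, 3.69 in Veh_PD1 replicate 4, 3.55 in Veh_IgG replicate 4, 3.33 in Veh_PD1 replicate 5 and 3.07 in GYY_IgG replicate 4, with GYY_PD1 replicate 2 at 2.96 just outside. Both edges of the sets are therefore narrow steps in a continuous range. Of the libraries left out, GYY_PD1 replicate 1 had a score of -5.49, with S100a8 and S100a9 listed at 0, and GYY_PD1 replicate 4 had 5.32. Ranking by S100a8 alone or by S100a9 alone kept 5 of 6 libraries of each set, and by Csf3r alone 4 of the 6 rich and 5 of the 6 poor ones. Without subtraction of the library median 4 rich and 5 poor libraries kept their place, and on TPM rescaled to nuclear protein-coding genes all 12 did. In bulk tissue, fewer neutrophils and less RNA per neutrophil cannot be told apart.

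**Figure D1:**
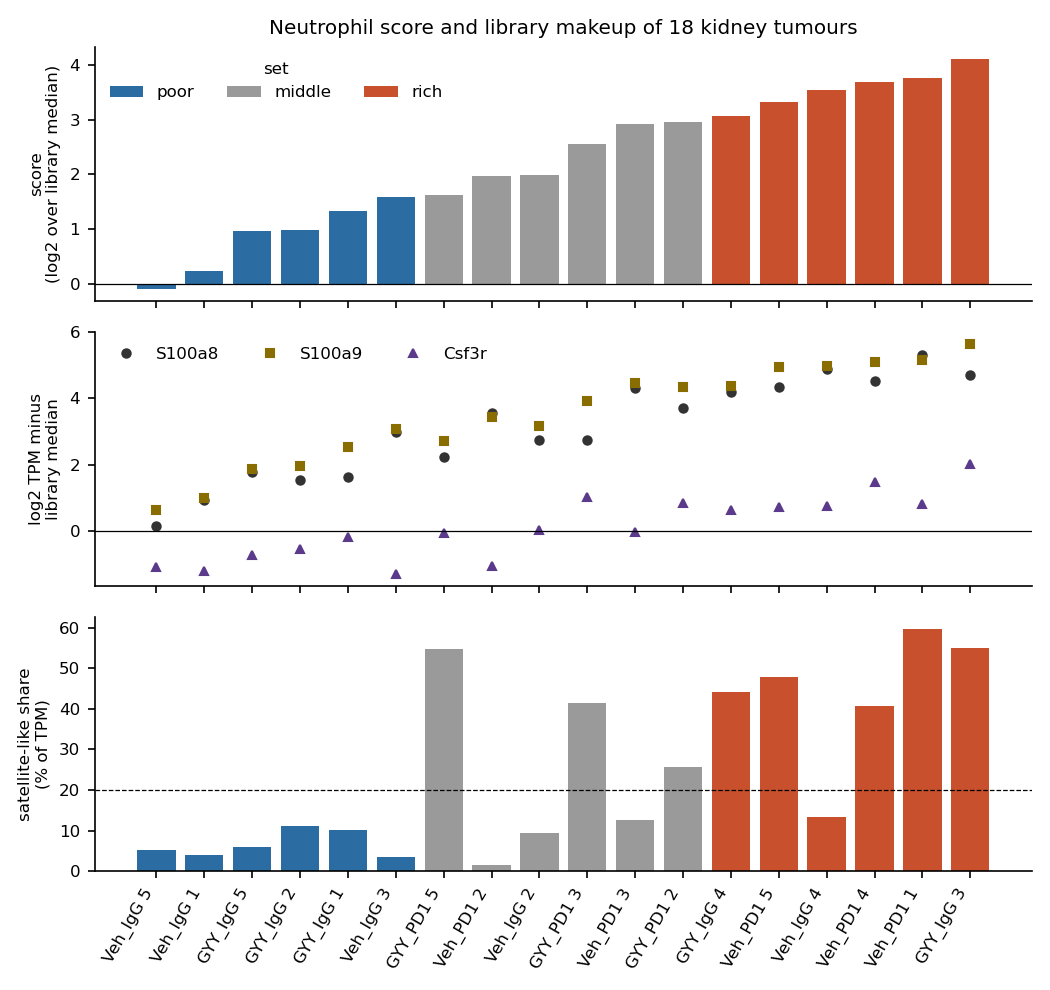
The 18 ranked libraries in order of score (log2 over the library median, top), with the 3 genes of the score (log2 TPM minus the library median, middle) and the satellite-like share of TPM (percent, bottom, dashed line at 20%). Bars are single libraries, blue for the poor, grey for the middle and red for the rich set; the satellite-like share reaches 11.1% in the poor set and lies above 40% in 5 of the 6 rich libraries.

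S100a8 and S100a9 lie 22597 bases apart on chromosome 3 (mm10), in opposite orientation, within the cluster of S100 genes, and Csf3r lies on chromosome 4. Their promoters are shown with those of Retnlg and Stfa2l1, a pair of mature neutrophil genes that moved with the score in the tests below. Each is 300 bases of RefSeq sequence on GRCm38.p6, the same assembly as mm10, written 5′ to 3′ on the strand of the gene. Capitals mark letter matches, on either strand and with no overlap between motifs here, to TTGCNNAA (the core that C/EBP factors bind), GAGGAAGT (PU.1) and TATAAA (the box near many start sites that the general transcription machinery binds, or TATA box).
S100a8, chr3:90668821-90669120, plus strand: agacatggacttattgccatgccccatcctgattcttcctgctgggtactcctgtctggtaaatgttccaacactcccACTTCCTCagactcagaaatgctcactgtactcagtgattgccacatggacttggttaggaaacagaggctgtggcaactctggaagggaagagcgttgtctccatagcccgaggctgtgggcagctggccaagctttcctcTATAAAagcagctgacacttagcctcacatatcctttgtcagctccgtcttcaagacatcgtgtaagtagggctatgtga
S100a9, chr3:90695672-90695971, minus strand: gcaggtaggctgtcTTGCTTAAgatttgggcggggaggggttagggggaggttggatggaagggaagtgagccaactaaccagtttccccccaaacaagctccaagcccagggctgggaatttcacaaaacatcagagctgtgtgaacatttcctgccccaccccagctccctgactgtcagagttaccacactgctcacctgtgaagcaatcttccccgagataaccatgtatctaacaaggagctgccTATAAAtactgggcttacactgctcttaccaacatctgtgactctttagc
Csf3r, chr4:126024409-126024708, plus strand: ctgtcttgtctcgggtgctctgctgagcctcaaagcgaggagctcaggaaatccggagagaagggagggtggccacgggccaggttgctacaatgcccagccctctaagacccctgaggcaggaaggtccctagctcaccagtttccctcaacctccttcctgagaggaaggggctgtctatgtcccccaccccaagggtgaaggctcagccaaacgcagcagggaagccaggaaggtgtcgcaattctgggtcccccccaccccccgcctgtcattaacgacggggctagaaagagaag
Retnlg, chr16:48872358-48872657, plus strand: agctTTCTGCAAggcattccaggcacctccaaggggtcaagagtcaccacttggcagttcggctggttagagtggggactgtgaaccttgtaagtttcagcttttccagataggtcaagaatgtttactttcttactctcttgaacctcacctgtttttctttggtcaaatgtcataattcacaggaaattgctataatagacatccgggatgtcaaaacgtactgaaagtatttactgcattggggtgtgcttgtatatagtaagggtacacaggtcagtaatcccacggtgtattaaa
Stfa2l1, chr16:36156561-36156860, plus strand: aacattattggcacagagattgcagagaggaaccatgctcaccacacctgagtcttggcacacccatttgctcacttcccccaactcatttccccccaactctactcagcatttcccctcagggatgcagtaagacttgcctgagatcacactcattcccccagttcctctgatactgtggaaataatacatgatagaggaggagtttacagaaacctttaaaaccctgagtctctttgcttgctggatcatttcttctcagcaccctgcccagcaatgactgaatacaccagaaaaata

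S100a8 holds 1 PU.1 and 1 TATA match, S100a9 1 C/EBP and 1 TATA match, Retnlg 1 C/EBP match, and Csf3r and Stfa2l1 hold none of the 3. Among the 3 score genes and the 15 genes called with the score at equal satellite class (below), 15 of 18 had a promoter in the table, and BC100530, Gm5483 and Rab44 did not. The C/EBP letters were in 2 of these 15 and in 10.8% of all 32851 promoters. The PU.1 letters were in 3 of 15 and in 3.20% of all, and the TATA letters in 5 of 15 and in 13.6% of all. A match is a run of letters and not a bound site.

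The comparison of the sets asks which other genes go with neutrophil RNA in these tumours. Retnlg, Stfa2l1, Il1r2 and other genes of mature neutrophils were among the rises, and 8 mitosis genes were among the falls. Cd248 and Ms4a7, single genes of fibroblasts and macrophages, also fell. Of the fixed lists, 0 of 12 fibroblast genes (median -0.26 log2, 4 higher and 8 lower) and 0 of 15 macrophage genes fell. By limma on log2(TPM + 0.1) minus the library median, 470 of 11831 genes passed a Benjamini-Hochberg adjusted p of 0.05 (3.97%), 222 of them higher in the rich tumours (1.88%) and 248 lower (2.1%). A positive difference was found for 35.8% of all tested genes, and the median over all was -0.09 log2. These shares are the background for the list counts below. The sets did not overlap for 127 of the 222, which were picked by this same comparison. Over all 11831 tested genes, every rich library lay above every poor one for 153. The p-values say that a gene covaries with libraries sorted on 3 neutrophil genes, not that a treatment changed it.

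The split of higher and lower depended on the scale. On the deposited scale without subtraction of the library median 11063 genes passed, 56 higher and 11007 lower, with a median difference of -1.41. On TPM rescaled to nuclear protein-coding genes 243 passed, 159 higher and 84 lower, and the median was -0.06. Of the 222 rises, 110 were positive without the subtraction, 45 of these past the threshold. A gene at 0 TPM in all 12 libraries would receive a difference of 1.32 from the subtraction and the pseudocount alone, so rises of genes near 0 are uncertain, and 40 of the 222 had a mean under 1 TPM. Leaving out 1 library gave from 173 calls (without Veh_IgG replicate 1) to 665 (without Veh_IgG replicate 4). The median of mean TPM was 2.32 for genes called higher, 16.9 for genes called lower and 8.34 for all tested genes.

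Genes of late granules and of mature neutrophils were higher in the rich tumours. Of the 20 in the list, 15 passed the filter, all 15 had a positive difference and 10 rose, with a median of 1.92 log2 beside -0.09 for all tested genes. Summed over the list, the level was 867 to 1367 TPM of nuclear coding RNA in the poor set and 2032 to 4597 in the rich set, with no overlap. Most of this sum came from abundant members of the list other than the genes named below, so it does not measure those genes. Without subtraction of the library median the list's median was 0.60, 10 of 15 were positive and 4 rose. With the treatment groups as covariate 4 rose as well. The 3 Veh_PD1 tumours are all rich, so in that fit the treatment term absorbs them. Its differences between the sets, here and below, rest on the IgG tumours alone. These were 2 GYY_IgG and 1 Veh_IgG tumours in the rich set and 3 of each in the poor set. The list's median was thus above 0 on each scale and smaller on the deposited one.

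Retnlg, which encodes a resistin-like protein of mature neutrophils, showed the largest rise of the list. It had 1.13, 4.45 and 12.9 TPM in the poor tumours (lowest, median, highest) and 6.51, 14.4 and 40.5 TPM in the rich ones. Relative to the library median the sets did not overlap, and the rise was 10.1-fold (3.33 log2, SE 0.51, adjusted p = 0.00363). Stfa2l1, a stefin A-like inhibitor of cysteine proteases, had 1.36, 3.53 and 7.43 TPM against 7.53, 10.3 and 13.9 TPM. This rise was 2.94 log2 (SE 0.36, adjusted p = 0.000908), with no overlap on either scale. Il1r2, the decoy receptor that binds IL-1 without signalling, rose by 1.94 log2 (SE 0.24, adjusted p = 0.000908) from a median of 2.49 to 3.89 TPM. Asprv1, an aspartic protease of skin and neutrophils, rose by 2.63 log2 (SE 0.39, adjusted p = 0.00329) from 0.816 to 2.56 TPM.

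The collagenase Mmp8 and the gelatinase Mmp9, stored in the later granules, rose by 1.92 (SE 0.38, adjusted p = 0.0175) and 1.75 log2 (SE 0.33, adjusted p = 0.0145). Their medians were low, 2.56 and 3.2 TPM for Mmp8 and 1.31 and 1.77 TPM for Mmp9. Cd177, a surface protein of mature neutrophils, went from a median of 0.557 to 0.997 TPM. Genes of the myelocyte stage were low. Ltf (lactoferrin) had medians of 0.164 and 0.551 TPM, Ngp 0.0863 and 0.683, Camp (cathelicidin) 0 and 0, and all 3 were under the filter. Ly6g, the antigen by which mouse neutrophils are sorted, was also under it, with 0 to 0.321 TPM in the poor set and 0 to 1.35 in the rich set. Of the primary granule genes, only Prtn3 was tested: it had 3.79 to 8.11 TPM in the poor set and 1.92 to 3.83 in the rich set, and its difference of 0.15 log2 did not pass (SE 0.19, adjusted p = 0.65). Mpo reached at most 0.0667 and 0.383 TPM and Elane 0.532 and 0.435 TPM. Ctsg and Ms4a3 were under the filter as well. The neutrophil label thus rests on genes of the mature cell such as Retnlg, Il1r2 and Mmp8, with the sorting antigen Ly6g and 4 of 5 primary granule genes under the filter.

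The 10 largest rises among genes with full names were Stfa2, Sprr2f, Retnlg, Asmt, Mpped1, Immp2l, Asphd2, Stfa2l1, G0s2 and Il1f9. Stfa2 rose by 4.24 log2 (SE 0.85, adjusted p = 0.0183), from 0 to 3.67 TPM in the poor set, with 2 libraries at 0, to 1.92 to 13.1 TPM in the rich set. G0s2, an inhibitor of lipolysis that is abundant in neutrophils, rose by 2.92 log2 (SE 0.48, adjusted p = 0.00535), and Il1f9, the epithelial and myeloid cytokine IL-36 gamma, by 2.87 log2 (SE 0.44, adjusted p = 0.00363). Sprr2f, a cornified envelope protein of epithelia, rose by 3.84 log2 (SE 0.99, adjusted p = 0.047) while its sets overlapped, at 0 to 1.31 and 0 to 17.6 TPM.

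Like Sprr2f, the other 4 of the 10 are not known as neutrophil genes. Asmt (melatonin synthesis) rose by 3.18 log2, Mpped1 (a phosphodiesterase-like protein of brain) by 3.08, Immp2l (a mitochondrial inner membrane peptidase) by 3.08 and Asphd2 by 3.03. Their medians in the rich set were 1.5, 1.11, 1.21 and 0.863 TPM. These are low levels, in libraries whose satellite-like share was high. Asmt, Immp2l and Asphd2 reached at most 0.647, 0.651 and 0.288 TPM in the poor set. They therefore passed the filter of 1 TPM only through libraries outside that set, which favours a rise, and their differences are uncertain. All 12 satellite-like models that were tested as protein-coding genes were also among the 222 rises.

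Stfa2l1 and Stfa2 belong to a cluster of stefin A genes on chromosome 16 (mm10, 36119946 to 36455392), named here after its values were seen. It holds 8 protein-coding genes, of which 6 were tested and 4 rose: Stfa2l1, Stfa2, Gm5483 by 2.44 log2 (SE 0.34, adjusted p = 0.00221) and BC100530 by 3.29 (SE 0.51, adjusted p = 0.00425). BC117090 differed by 3.05 (SE 0.82, adjusted p = 0.0514) and Gm5416 by 2.42 (SE 0.90, adjusted p = 0.121), and neither passed. Csta1 was at 0 TPM in all 6 rich libraries, and Stfa3 reached 0.694 TPM in the poor set and 1.99 in the rich set. These are copies within 1 gene family, and the counting could have split reads among them, so their separate values are uncertain. Their sequence identity and any sharing of reads were not tested.

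To separate the score from the satellite class, the score was fitted as a slope over all 18 ranked libraries with the class as a second term, and slopes were scaled to the gap of 2.76 between the mean scores of the sets. This fit was chosen after seeing the data. It called 16 genes by limma, 15 higher with the score (0.127% of all tested) and 1 lower. The 15 were BC100530, Retnlg, Stfa2l1, Olfm4, Il1f9, Gm5483, Asprv1, Cd177, Cxcr2, Chil1, Ifitm1, Il1r2, Cd300lf, Rab44 and Srgn. Since the score that picked these 15 also ranked the libraries, their overlap with the rises between the sets is no separate support. All 15 were among the 222 rises between the sets, and none of the 248 falls was called here. The only lower gene, Sap30l, a subunit of a histone deacetylase complex, was not among them (-0.34 log2 between the sets, SE 0.12, adjusted p = 0.1). Of the 16, 6 were in the neutrophil lists, and Olfm4, Gm5483, Chil1, Ifitm1, Cd300lf, Rab44, Srgn, BC100530 and Sap30l are named after their values were seen. With the treatment groups as covariate, the comparison of the sets called 8 of the 16. BC100530, Retnlg, Olfm4, Il1f9, Asprv1, Cd177, Rab44 and Sap30l did not pass there. With the score over 18 libraries and the treatment groups, 15 of the 16 passed.

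Retnlg rose by 3.68 log2 over the gap (SE 0.50, adjusted p = 0.00219), with slopes of 3.74 (SE 0.60) in the 10 libraries under 20% and 3.53 (SE 0.80) in the 8 over it. Stfa2l1 rose by 2.64 (SE 0.31, adjusted p = 0.000772), with 2.92 and 1.92 within the classes. Cxcr2, the receptor that draws neutrophils along chemokines, rose by 2.02 (SE 0.30, adjusted p = 0.00277), with 2.20 and 1.56. Its levels were low, 0.389, 1.03 and 2 TPM in the poor set and 1.11, 1.57 and 3.93 TPM in the rich one. All 3 slopes were positive in both classes. Within a class only that of Stfa2l1 under 20% passed (adjusted p = 0.0155): under 20% the adjusted p was 0.0945 for Retnlg and 0.104 for Cxcr2, and over 20% it was 0.836 for each of the 3.

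Olfm4 marks a subset of neutrophils and their specific granules, Chil1 encodes a chitinase-like glycoprotein of the same granules, and Srgn encodes serglycin, the proteoglycan that packs granule proteins. Olfm4 rose by 2.50 log2 (SE 0.37, adjusted p = 0.00293), Chil1 by 1.91 (SE 0.29, adjusted p = 0.00293) and Srgn by 1.03 (SE 0.20, adjusted p = 0.0357). Srgn, the most abundant of them, had 54.9, 74.5 and 85.1 TPM in the poor tumours and 43.1, 88.8 and 128 TPM in the rich ones. As TPM these overlap, and relative to the library median they do not. Of the 15, 14 had a positive difference between the sets without subtraction of the library median, and 11 of these passed. Rab44 turned to -0.43 log2.

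Asmt had a slope of 0.76 log2 (SE 0.50, adjusted p = 0.428), Mpped1 1.52 (SE 0.74, adjusted p = 0.3), Immp2l 1.35 (SE 0.84, adjusted p = 0.405) and Asphd2 0.83 (SE 0.69, adjusted p = 0.541). Of the other rises, Stfa2 had 3.90 (SE 1.10, adjusted p = 0.185), Sprr2f 3.61 (SE 1.29, adjusted p = 0.216) and G0s2 1.60 (SE 0.52, adjusted p = 0.195). None of these 7 passed, so 3 of the 10 largest rises (Retnlg, Stfa2l1 and Il1f9) were called at equal satellite class. The satellite class on its own, without the score, called 515 genes over the same 18 libraries, 264 higher and 251 lower over 20%. Within the 10 libraries under 20% the score called 4 genes (BC100530, Gm5483, Stfa2l1 and Srgn), with 1531 at an unadjusted p under 0.05, and within the 8 over 20% it called 0, with 625 at an unadjusted p under 0.05.

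**Figure D2:**
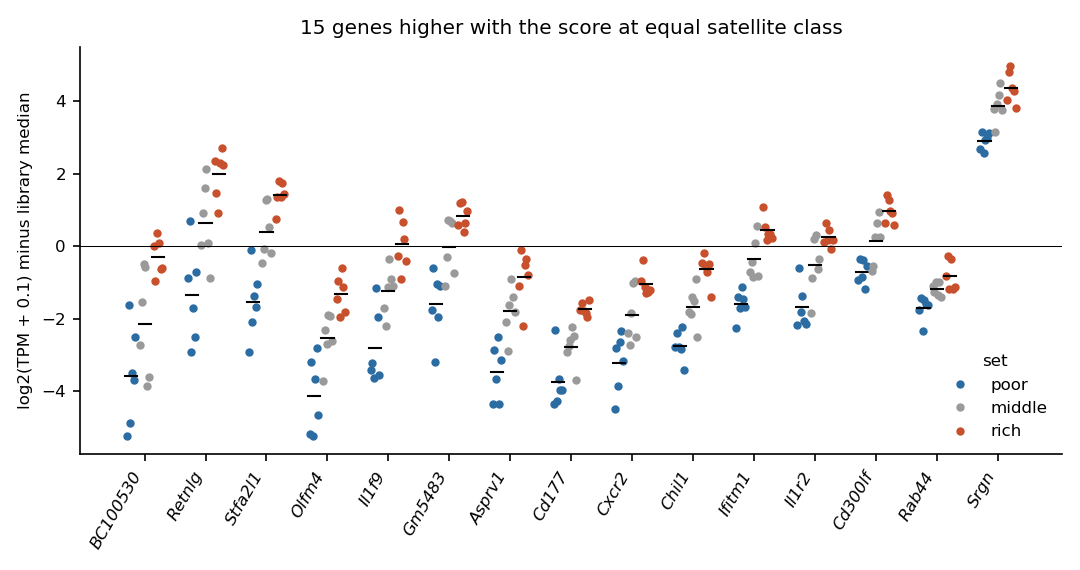
Levels of the 15 genes called higher with the score at equal satellite class, as log2(TPM + 0.1) minus the library median, in the 6 poor (blue), 6 middle (grey) and 6 rich (red) libraries. Points are libraries and short lines are means. The poor and rich libraries do not overlap for any of the 15 on this scale, and the rich lie above the poor for 153 of all 11831 tested genes. The 15 were picked by the score that ranked the libraries, so their separation is no separate support. Rab44 turns to -0.43 log2 without subtraction of the library median.

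**Figure D3:**
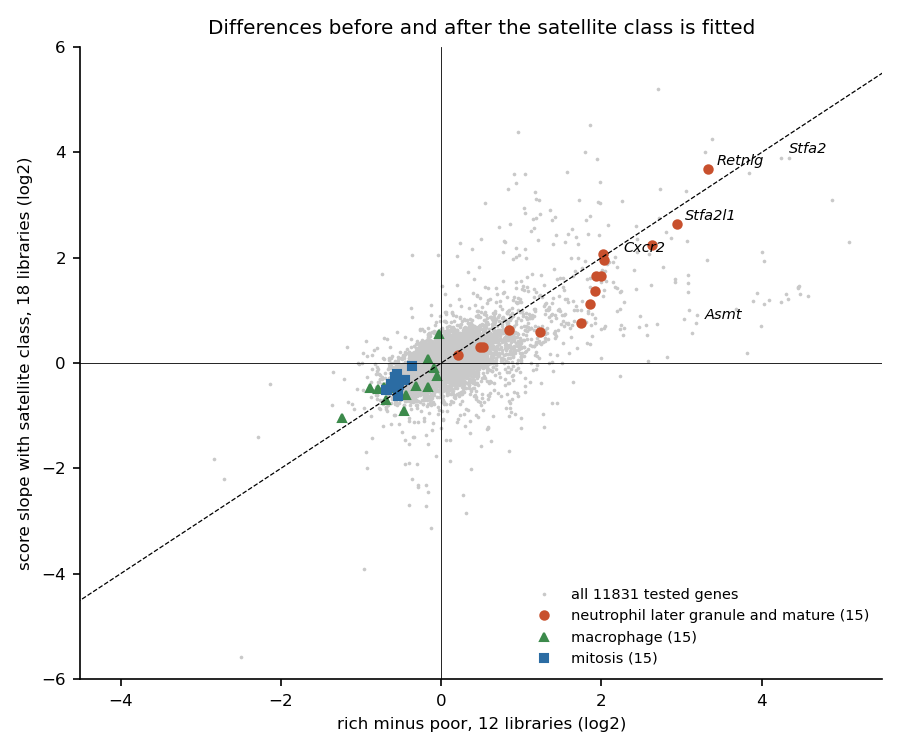
Each tested gene by its difference between the rich and poor sets (horizontal, log2) and by its slope on the score over 18 libraries with the satellite class fitted (vertical, log2, scaled to the gap of 2.76). The dashed line marks equal values; Retnlg and Stfa2l1 lie near it, and Asmt lies far below it, at 3.18 and 0.76.

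Receptors and adhesion molecules of neutrophils were higher in part. Of 23, 20 were tested, 19 had a positive difference and 7 rose, with a median of 0.54 log2. Clec4d, a C-type lectin of myeloid cells, had 6.95, 8.9 and 12.4 TPM against 5.32, 11.3 and 18.4 TPM and rose by 1.55 log2 (SE 0.23, adjusted p = 0.00339), and Trem1, an amplifier of inflammation, by 1.21 (SE 0.24, adjusted p = 0.0172), though Trem1 turned to -0.10 without subtraction of the library median. On that scale the list's median was -0.78, 3 of 20 were positive and 2 rose. Within the satellite classes its median was 0.11 and 0.03, and with the treatment groups as covariate 3 rose.

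The 6 subunits of the NADPH oxidase, which makes the oxidative burst in both cell types, had a median of 0.06 log2, and by limma 0 of 6 passed, with 1 at an unadjusted p under 0.05. Among them Ncf4 differed by 0.36 (SE 0.15, adjusted p = 0.16), Cyba by 0.29 (SE 0.20, adjusted p = 0.377) and Cybb by -0.28 (SE 0.25, adjusted p = 0.511). Of 10 transcription factors of the granulocyte line 8 were tested, 3 were positive and 0 passed, with 2 at an unadjusted p under 0.05 and a median of -0.07. Cebpa differed by -0.44 (SE 0.13, adjusted p = 0.0768) and Cebpd by 0.50 (SE 0.22, adjusted p = 0.174). Of the other S100 genes 9 of 14 were tested, 2 were positive and 0 passed, with 1 at an unadjusted p under 0.05 and a median of -0.12. S100a6 and S100a4, both abundant in the tumours at medians of 903 and 226 TPM in the poor set, differed by -0.25 (SE 0.22, adjusted p = 0.49) and -0.31 (SE 0.28, adjusted p = 0.515).

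Among the chemokines that bind CXCR2, and the growth factors of neutrophils, 7 of 11 genes were tested, 5 were positive and 2 rose, with a median of 1.03 log2. Cxcl3 had 4.19, 4.99 and 10.8 TPM in the poor tumours and 4.58, 10 and 12.2 TPM in the rich ones, a rise of 1.81 log2 (SE 0.26, adjusted p = 0.00257). Cxcl2 had 4.53, 10.4 and 14.2 TPM against 4.26, 19.8 and 25.6 TPM and rose by 1.85 (SE 0.42, adjusted p = 0.0293). Cxcl1 differed by 0.88 (SE 0.36, adjusted p = 0.156), with 23.4 to 40.4 TPM against 8.6 to 49.2 TPM, and Ppbp by 1.39 (SE 0.40, adjusted p = 0.063). Cxcl2 and Cxcl3 overlapped between the sets as TPM, and Cxcl3 did not relative to the library median. Cxcl5 had medians of 0.61 and 0.557 TPM, and Csf3, which encodes G-CSF, 0.0633 and 0.15 TPM, all under the filter. Without subtraction of the library median the list's median was -0.29 and 0 of 7 rose, and with the treatment groups as covariate 1 did.

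The cytokine Il1b varied widely, at 4.24, 11.7 and 41.2 TPM in the poor set and 3.37, 29.6 and 57.8 TPM in the rich set. Its difference of 2.03 log2 did not pass (SE 0.62, adjusted p = 0.0741), and the sets overlapped. None of the 12 IL-1 and inflammasome genes passed by limma, with 5 at an unadjusted p under 0.05. They had a median of 0.40, 9 were positive, and the IL-1 receptor antagonist Il1rn, Il1rap and Nlrp3 differed by 0.87 (SE 0.25, adjusted p = 0.0637), 0.72 (SE 0.21, adjusted p = 0.0675) and 0.84 (SE 0.28, adjusted p = 0.0941).

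Genes by which myeloid cells suppress T cells or drive vessels and repair were higher in part. Of 15, 12 were tested, 10 were positive and 6 rose, with a median of 0.83 log2. Nos2, which makes nitric oxide, had 2.75, 8.96 and 16.8 TPM against 6.04, 7.01 and 23.9 TPM and rose by 1.55 (SE 0.32, adjusted p = 0.0193). Its sets did not overlap relative to the library median, although its median TPM was the lower in the rich set. The cytokine Osm (oncostatin M) rose by 1.58 (SE 0.32, adjusted p = 0.0199). Slpi, a secreted protease inhibitor of neutrophils and epithelia, rose by 0.72 (SE 0.14, adjusted p = 0.0131) and Vegfa by 0.46 (SE 0.11, adjusted p = 0.033), yet without subtraction of the library median Slpi was at -0.60 and Vegfa at -0.85. Vegfa is also a member of the hypoxia list below, and its rise is counted in both lists. On that scale the list's median was -0.49, with 4 of 12 positive. With the treatment groups as covariate 0 of the 12 rose. None of the 12 was called at equal satellite class, where the list's median was 0.56. Clec7a, annotated as a polymorphic pseudogene, was not tested.

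Macrophage genes were lower in the rich tumours without passing the test. Of 15 genes tested, 0 had a positive difference and by limma 0 passed, with 6 at an unadjusted p under 0.05, and the median was -0.46 log2. Over all tested genes 35.8% had a positive difference. Csf1r, the receptor on which macrophages depend, had 25.3, 41.7 and 56.6 TPM in the poor tumours and 4.25, 8.39 and 28.7 TPM in the rich ones, a difference of -0.69 (SE 0.21, adjusted p = 0.0788). Apoe differed by -1.23 (SE 0.39, adjusted p = 0.0837), C1qb by -0.78 (SE 0.29, adjusted p = 0.123) and C1qc by -0.71 (SE 0.27, adjusted p = 0.127). The summed list was at 3190 to 5759 TPM of nuclear coding RNA in the poor set and 2267 to 4031 in the rich one, so the sets overlapped. Its median was -0.45 in the libraries under 20% and -0.53 in those over it.

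Monocyte genes showed no common direction, with 8 of 12 positive, 0 called by limma, 1 at an unadjusted p under 0.05 and a median of 0.08. Vcan differed by 0.78 (SE 0.34, adjusted p = 0.177), Plac8 by 0.54 (SE 0.26, adjusted p = 0.218), Ms4a6c by -0.60 (SE 0.29, adjusted p = 0.222) and Cx3cr1 by -1.08 (SE 0.51, adjusted p = 0.21). Of 14 T cell genes 5 passed the filter, and of 11 NK and cytotoxic genes and 11 mast cell, basophil and eosinophil genes 0 did. The T cell list summed to 25.0 to 77.5 TPM of nuclear coding RNA in the poor set and 22.9 to 99.3 in the rich set. Proximal tubule genes of normal kidney summed to 76.3 to 350.3 and 64.7 to 578.2, and their part in the results was not tested.

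Genes of cell division were lower in the rich tumours. All 15 mitosis genes had a negative difference and 8 fell, with a median of -0.54 log2. Over all 11831 tested genes 7601 were lower and 2.1% fell. Kif11, a spindle motor, fell from 9.14, 14.7 and 17.4 TPM to 1.83, 3.16 and 8.59 TPM (-0.69 log2, SE 0.14, adjusted p = 0.0195). Ccnb2 and Ccna2, cyclins of late cell cycle, fell by 0.57 (SE 0.11, adjusted p = 0.0175) and by 0.56 (SE 0.12, adjusted p = 0.0244), and the kinase Aurkb fell by 0.54 (SE 0.11, adjusted p = 0.0227). Kif11 and Aurkb did not overlap between the sets relative to the library median. On TPM rescaled to nuclear coding genes 4 of the 15 fell, with the treatment groups as covariate 0 did, and within the satellite classes the median was -0.43 and -0.35.

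DNA replication genes were lower in 14 of 15, of which 3 fell, with a median of -0.28. Over all 11831 tested genes 7601 were lower and 2.1% fell. The 3 were subunits of the MCM helicase: Mcm5 fell by 0.53 (SE 0.09, adjusted p = 0.00711), Mcm6 by 0.43 (SE 0.09, adjusted p = 0.0237) and Mcm7 by 0.35 (SE 0.09, adjusted p = 0.0489), while Mcm4 differed by -0.42 (SE 0.12, adjusted p = 0.0637). With the treatment groups as covariate 0 of the 15 fell.

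Hypoxia response genes were higher in 13 of 14, of which 5 rose, with a median of 0.41. Over all tested genes 35.8% were higher and 1.88% rose. Egln3, an oxygen-sensing prolyl hydroxylase, had 1.38, 1.69 and 2.13 TPM against 1.15, 2.38 and 3.48 TPM and rose by 1.64 (SE 0.22, adjusted p = 0.00154), with no overlap relative to the library median. Ankrd37 rose by 1.35 (SE 0.29, adjusted p = 0.0244) and the glucose transporter Slc2a1 by 0.82 (SE 0.20, adjusted p = 0.0377), the latter at -0.49 without subtraction of the library median. On that scale the list's median was -0.91 and 2 of 14 were positive. With the treatment groups as covariate 1 of the 14 rose. Interferon gamma response genes differed little: 14 of 17 were positive with a median of 0.22, but the median was -0.35 and -0.42 within the satellite classes. By limma 0 of them passed, with 1 at an unadjusted p under 0.05. The smallest p were those of Socs1 (1.00 log2, SE 0.36, adjusted p = 0.112) and Tap1 (0.22, SE 0.13, adjusted p = 0.312).

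**Figure D4:**
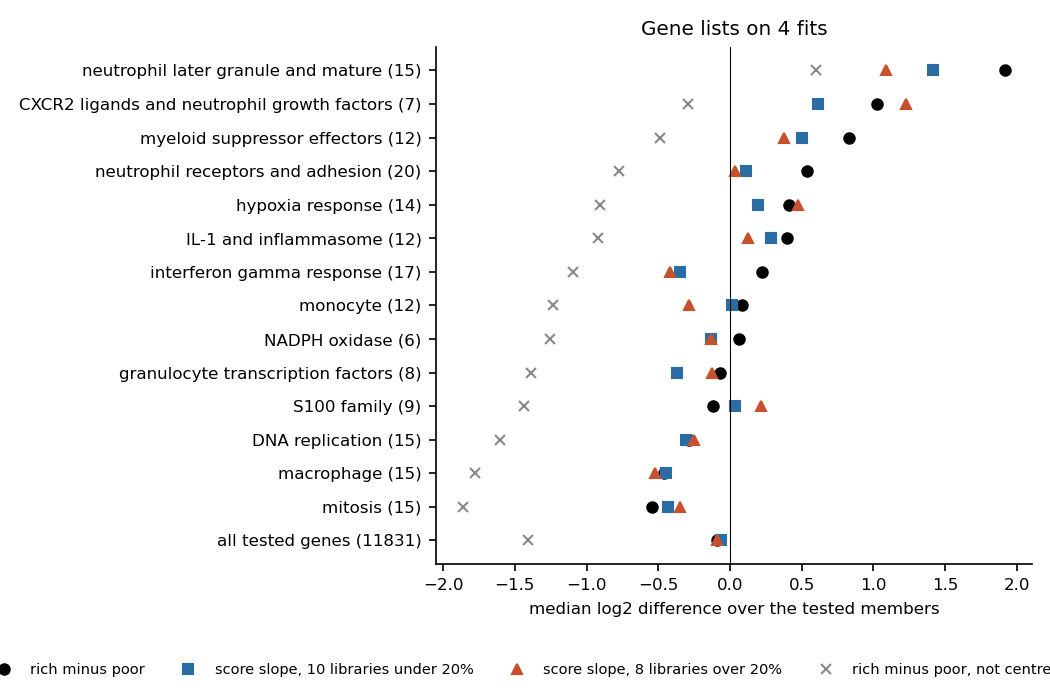
Median log2 difference over the tested members of 14 gene lists and over all tested genes (members in parentheses), between the rich and poor sets (black circles), as the score slope in the 10 libraries under 20% (blue squares) and the 8 over 20% satellite-like TPM (red triangles), and between the sets without subtraction of the library median (grey crosses). The mature neutrophil list lies above 0 on all 4, from 0.60 to 1.92, and the receptor, chemokine, suppressor, hypoxia, IL-1, interferon gamma, monocyte and NADPH oxidase lists turn negative on the grey scale.

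The 10 largest falls were Thrsp, Arhgap24, Tmem243, Ms4a7, Pamr1, Cd248, Ocel1, Cdh3, Sult1c2 and Gxylt2. Thrsp, a regulator of lipid synthesis, fell by 1.37 log2 (SE 0.28, adjusted p = 0.0199), from 3.4, 6.34 and 8.91 TPM to 0.308, 0.918 and 1.87 TPM. Gxylt2, a xylosyltransferase that acts on Notch, had 24.4, 36.8 and 41.4 TPM against 5.06, 6.53 and 18.6 TPM and fell by 0.81 (SE 0.13, adjusted p = 0.00535). Ms4a7, a membrane protein of macrophages, fell by 0.96 (SE 0.22, adjusted p = 0.0316), and Cd248, or endosialin, of fibroblasts and pericytes, fell by 0.87 (SE 0.17, adjusted p = 0.0157). The cadherin Cdh3 fell by 0.86 (SE 0.17, adjusted p = 0.0154). Gxylt2, Ms4a7 and Cdh3 did not overlap between the sets. At equal satellite class none of the 10 passed: Cd248 had the largest slope, -1.01 (SE 0.23, adjusted p = 0.115), and Ocel1 turned to 0.16.

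Treatment was not balanced by the ranking. The score chose the sets, so its values by treatment are described without a test. The mean score was 1.45 ± 1.47 (SD, n = 5) in Veh_IgG, 2.09 ± 1.43 (n = 5) in GYY_IgG, 3.14 ± 0.73 (n = 5) in Veh_PD1 and 2.38 ± 0.69 (n = 3) in GYY_PD1. Veh_IgG tumours ran from -0.11 to 3.55 and GYY_IgG tumours from 0.96 to 4.12. Veh_PD1 tumours ran from 1.98 to 3.77 and GYY_PD1 tumours from 1.62 to 2.96. All 4 groups overlapped, and no ranked tumour given the PD1 antibody was in the poor set, while GYY_PD1 replicate 1, left out by the rule, had -5.49. With the treatment groups as covariate the comparison of the sets called 46 genes, 38 higher and 8 lower. All 3 Veh_PD1 tumours in the sets were rich, so that fit rests on the IgG tumours. It compares fewer libraries, so its smaller count does not measure a part played by treatment. With the share of nuclear coding TPM as covariate limma called 0, with 187 at an unadjusted p under 0.05. Of the 470 genes, 15 were also called at equal satellite class, though the satellite-like share still varied within each class. With the nuclear coding share as covariate 0 of these 15 were called, and all 15 kept their direction. That share did not overlap between the sets, so this fit can hardly separate it from the set. For the other called genes, neutrophil score and satellite class cannot be told apart in these 12 libraries.

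**Figure D5:**
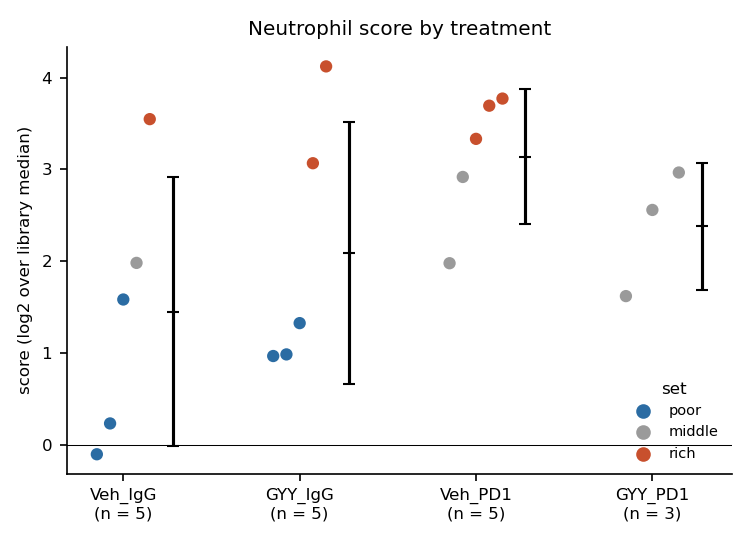
Score (log2 over the library median) of each of the 18 ranked tumours by treatment group, coloured by set (blue poor, grey middle, red rich), with the group mean and SD as a bar beside the points. The poor tumours are all in the IgG groups, and the Veh_IgG group spans -0.11 to 3.55.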

How the data were processed

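Bulk RNA of 20 tumours was measured. The authors deposited log2 TPM, by the name of the table, for 34234 genes, with 0 TPM at a floor of -8.88 log2. Per the submitters' processing notes, cutadapt, fastp, Salmon 0.14.1, HTSeq 0.11.0 and mm10 were used, and their roles are not given in the sources used here. TPM keeps no read numbers, so sequencing depth cannot be read from these values (unknown) and counting error has no interval here. Gene types and positions come from GENCODE M21, which holds 33928 of the gene names.

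Differences were fitted with limma 3.58.1 (R 4.3.3, trended eBayes, two-sided, Benjamini-Hochberg over 11831 genes, threshold 0.05) on log2(TPM + 0.1) minus the library median, without covariates, and the script was tested on simulated data. Fold changes are on this scale: the pseudocount shrinks those of low genes, while the subtraction lifts genes near 0 in the rich libraries. Summed levels are of TPM rescaled to nuclear protein-coding genes. Satellite-like models (13) were found in transcripts of at least 400 bases from a repeat unit of 225 to 240 bases (identity 50% or more) and from 20 or more words of 15 bases shared with the model Gm10800. A planned permutation test of the score across treatments is not reported, since the score chose the sets. The members and the 47 gene lists were chosen with earlier results of these data known.

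Named genes are the 10 largest rises and falls past the threshold without provisional names, up to 4 members with the smallest p of each list described, and fixed defining neutrophil genes; others are named after their values were seen. The labels call the samples biological replicates and say no more, so p-values measure the spread between these samples.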

Additional observations from a re-analysis of the deposited data

Results flagged for a closer look

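Among 102 groups of 6 libraries tested for the genes shown, 7 had a library far from the other 5 by Dixon's ratio (6.86%), and chance flags about 1 in 20 groups. All values are log2(TPM + 0.1) minus the library median. Cd177 in the poor set was -2.33 in Veh_IgG replicate 3, where the next highest was -3.67. Cxcr2 in the rich set was -0.40 in GYY_IgG replicate 3, the library with the highest score, against -0.98 in the next. Rab44 in the poor set was -2.35 in Veh_IgG replicate 5, the library with the lowest score, and the next lowest was -1.77. Mmp8 in the rich set was 1.58 in GYY_IgG replicate 4 and the next highest was 0.14. Cxcl5, which is under the filter, was -2.11 in Veh_IgG replicate 5 of the poor set and -3.76 in the next. Immp2l in the poor set was -6.68 in GYY_IgG replicate 1, where it was listed at 0, and the next lowest was -4.46. Pamr1 in the rich set was -0.44 in Veh_IgG replicate 4, the only rich library under 20% satellite-like TPM, and -1.45 in the next.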

How the results depend on the processing

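The 470 calls depended on the processing. They became 310 on deposited log2 values with no pseudocount, 3886 with a pseudocount of 1 TPM, 8464 with no filter, 274 with a filter of 5 TPM, 11063 without centring and 243 on TPM rescaled to nuclear coding genes. They became 46 with the treatment groups as covariate, 45 with the score over 18 libraries and the treatment groups, and 0 with the nuclear coding share. Score slopes called 4 genes under 20% satellite-like TPM, 0 over it, 16 with the satellite class and 13 with the satellite share. The score over 18 libraries (585) and library weights (371) stayed within 1.5 times. Leaving out 1 library gave 173 to 665; the count fell by over 1.5 times without Veh_IgG replicate 1 (173), GYY_IgG replicate 3 (182), GYY_IgG replicate 5 (185), Veh_IgG replicate 5 (194), GYY_IgG replicate 1 (210) or Veh_PD1 replicate 1 (212).

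With the replicate number as a block 283 genes passed. Same-numbered libraries of different groups deviated with correlations of -0.38 to 0.36 (median 0.05, 11 of 30 over 0.1). Libraries of different number had -0.52 to 0.49 (median 0.0004, 37 of 120 over 0.1). The ranges overlap, so these values cannot decide whether the numbers pair the tumours.

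Over 1465 alternative values of the 53 named calls, 962 kept direction and call, 487 kept only the direction and 16 changed direction. None changed direction without 1 library. Without centring Rab44 (-0.43), Trem1 (-0.10), Slpi (-0.60), Vegfa (-0.85) and Slc2a1 (-0.49) did. With the nuclear coding share Mpped1 (-1.66), Ankrd37 (-0.052), Arhgap24 (0.14), Pamr1 (0.52) and Ccnb2 (0.0048) did. Under 20% Pamr1 (0.025) and Ocel1 (0.030) did, over 20% Tmem243 (0.026) and Ocel1 (0.50), and with the satellite class and share Ocel1 (0.16 and 0.12). The cause was not tested. The 4 settings on satellite-like TPM were chosen after seeing the data.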
